A study of Mus musculus with 15 samples.

Results

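Small RNA of mouse pancreatic acini was compared between 3 libraries treated with caerulein at 100 nM and 3 untreated control libraries, which together are 6 of the 15 libraries of the study. The libraries were taken by their titles, and every mature miRNA with enough counts was described, together with its seed family and its partner arm. The table lists 1915 mature miRNAs, of which 715 were counted at least once in these 6 libraries, and 351 passed the filter on low counts and were tested. The other 364 counted miRNAs were too scarce to test, with a median total of 5.0 counts over the 6 libraries and no single count above 38.

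Acini are the clusters of exocrine cells that make, store and secrete the digestive enzymes of the pancreas. All groups were acini of C57BL/6 mice aged 7 to 8 weeks, and control libraries received no agent. The submitters call caerulein at 100 nM a pathological dose. Their title for the series already singles out miR-21-3p (miR-21a-3p in the table) for its increase in pancreatitis, so that arm is not an independent choice here. The other groups of 3 libraries were caerulein at 100 pM, called physiological, and taurolithocholic acid 3-sulfate (TLC-S), a bile acid, at 62.5 uM and 250 uM. RNA from 3 acinar preparations was pooled per the labels, which do not say which library holds which preparation, and the time of exposure is not given in the sources used here. P-values therefore reflect how far these libraries varied, and that variation may be technical in origin.

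Caerulein, a decapeptide from frog skin, stimulates the cholecystokinin receptor. A low dose evokes calcium oscillations and enzyme secretion in acinar cells, while a dose beyond the secretory maximum holds secretion back, activates digestive enzymes within the cell and is widely used to model acute pancreatitis. A miRNA is cut from a hairpin precursor, and either strand of the hairpin (the 5p or the 3p arm) can be loaded into an Argonaute protein, where its seed pairs with messenger RNAs and lowers their output. The 2 arms of a hairpin come from the same transcript, so a change of transcription moves both, whereas arm choice or strand decay can move one of them alone.

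The sequences below are those of the miRNAs on which the results turn, in RefSeq's entries for GRCm38.p6, 5′ to 3′, with the seed (bases 2 to 8) in capitals. First come the miRNAs that stood higher with caerulein in this comparison, with miR-330-3p, which has the seed of miR-6240, and the abundant partner arms of miR-21a-3p and miR-29a-5p.
miR-3968: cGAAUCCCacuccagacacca
miR-6240: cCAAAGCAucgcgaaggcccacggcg
miR-330-3p: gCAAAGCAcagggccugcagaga
miR-21a-3p: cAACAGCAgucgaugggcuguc
miR-21a-5p: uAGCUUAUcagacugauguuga
miR-29a-5p: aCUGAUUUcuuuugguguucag
miR-29a-3p: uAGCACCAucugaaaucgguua

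Next are the miRNAs that stood lower with caerulein. No sequence is shown for miR-126a-5p or miR-129-1-3p.
miR-126a-3p: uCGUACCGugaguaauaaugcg
miR-411-5p: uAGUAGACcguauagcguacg
miR-382-3p: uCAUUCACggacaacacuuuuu
miR-433-3p: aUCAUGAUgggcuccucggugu
miR-221-5p: aCCUGGCAuacaauguagauuucugu
miR-142a-5p: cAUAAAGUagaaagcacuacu
miR-199a-3p: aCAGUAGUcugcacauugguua
miR-195a-5p: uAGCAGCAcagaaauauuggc
miR-322-5p: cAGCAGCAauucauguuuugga

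Library depth was uneven. Total miRNA counts were 1846735, 2255758 and 2847458 in control replicates 1 to 3, and 1953104, 535473 and 5087728 in the caerulein replicates. Of the 351 tested miRNAs, the shallow caerulein replicate 2 had 11 at 0 and 112 under 10 counts, against 6 under 10 counts in the deep caerulein replicate 3. One count was worth 1.75 CPM in the former and 0.188 CPM in the latter. CPM is the usual depth-scaled count, here after TMM scaling, which allows for libraries that differ in composition. Scaled CPM does not add up to the same total in each library and is not a share of its counts. Over the tested miRNAs it summed to 843140 CPM in control replicate 2 and to 1360500 CPM in control replicate 3. Control replicate 3 stood apart in composition, with 50.5% of its counts in miR-148a-3p, the leading acinar miRNA, against 17.6% to 24.8% in the other 5 libraries. Pairwise correlations of log2 CPM over miRNAs nevertheless ran from 0.973 to 0.987.

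Differences between acini given the 100 nM dose and control acini were small for most miRNAs. The median log2 difference was 0.03 and the median absolute difference 0.25, with 185 miRNAs (52.7%) above 0 and 166 (47.3%) below. By edgeR's quasi-likelihood test, 0 of the 351 (0%) reached a Benjamini-Hochberg adjusted p under 0.05. An unadjusted p under 0.05 was found for 12 (3.42%), of which 4 (1.14%) were higher and 8 (2.28%) lower with caerulein. DESeq2 called 1 (0.285%), miR-3968, and limma-voom with quality weights called 0. Groups did not overlap for 23 miRNAs (6.55%), 9 (2.56%) higher and 14 (3.99%) lower. With 3 libraries per group such separation also arises without any difference, so it is a description and not a test.

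What the libraries could resolve depended on abundance. The 95% interval reached a median of 0.73 to either side of the estimate on the log2 scale. For the 21 miRNAs at 10000 CPM or more it was 0.49 (1.40-fold), and for 19 of them the whole interval lay within 2-fold. Among the 77 below 10 CPM it was 1.40 (2.64-fold), and for 0 of these did the interval lie within 2-fold. In all, 171 of 351 intervals lay within 2-fold and 27 within 1.5-fold of no difference.

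**Figure D1:**
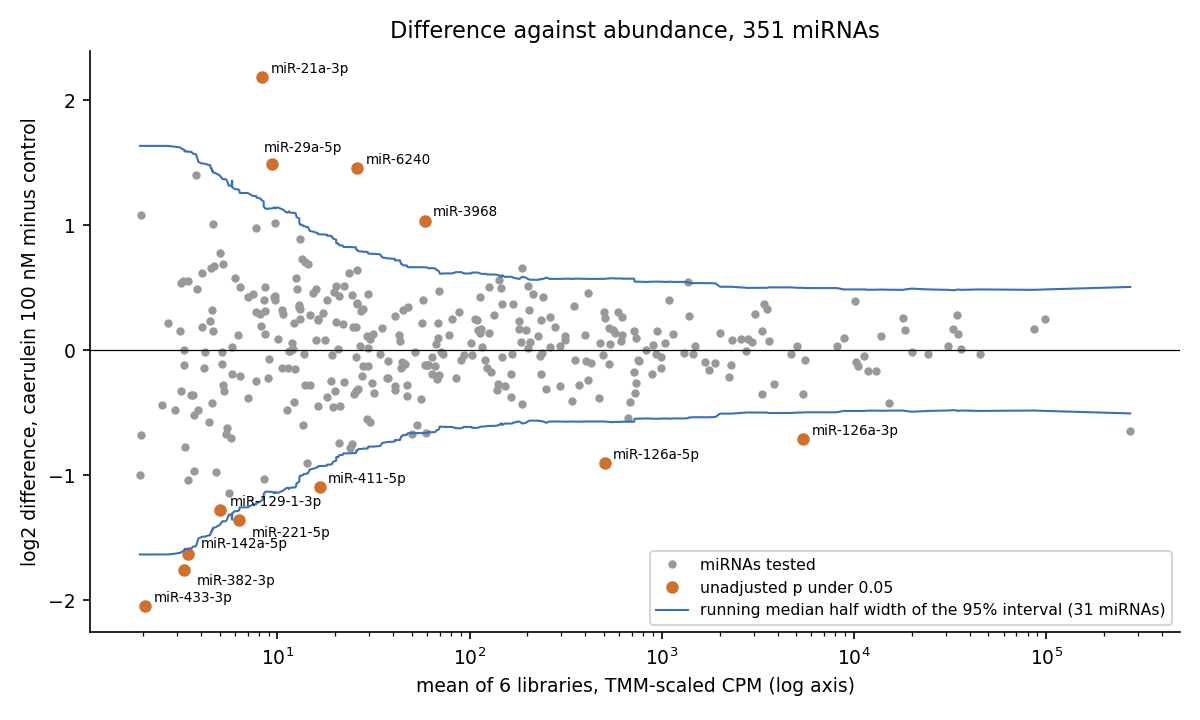
Log2 difference (caerulein 100 nM minus control) against mean abundance in the 6 libraries (TMM-scaled CPM, log axis) for the 351 miRNAs tested, with the 12 at an unadjusted p under 0.05 named. The blue lines are a running median of the reach of the 95% interval to either side; 7 of the 12 named miRNAs lie below 10 CPM, and miR-126a-3p is the 1 above 1000 CPM.

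The 10 most abundant miRNAs in control were 5 of the acinar, islet and epithelial lists (miR-148a-3p, miR-375-3p, miR-217-5p, miR-200a-3p and miR-200b-3p) and 5 found in most tissues. The latter, let-7f-5p, let-7i-5p, let-7g-5p, miR-30a-5p and miR-27b-3p, differed by 0.28, 0.13, 0.04, 0.17 and -0.03 on the log2 scale, with none called. miR-148a-3p was at 157628, 157905 and 687528 CPM in control and at 237704, 189608 and 212763 CPM with caerulein. The caerulein libraries lay between the control libraries. Its log2 difference of -0.65 (SE 0.40) became 0.45 without control replicate 3. miR-217-5p, which is enriched in acinar cells, was at 64440, 99100 and 80952 CPM against 66928, 101389 and 105928, a log2 difference of 0.17 (SE 0.26) that was 0.05 without caerulein replicate 3 and 0.36 without caerulein replicate 1. miR-375-3p, the islet miRNA that is also found in exocrine cells, was at 111218, 93698 and 66877 CPM against 104935, 103345 and 114887. Its log2 difference was 0.25, with a 95% interval from -0.21 to 0.70, and was 0.09 without control replicate 3 and 0.45 without control replicate 1. Neither of the last 2 miRNAs separated the groups.

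Of the 10 listed acinar miRNAs, 8 were tested, 4 of them above 0 and 4 below, with a median of 0.03, which was that of all miRNAs tested, and 3 to 6 were above 0 (medians from -0.02 to 0.17) under other scalings and with each library left out. The 2 not tested, both arms of miR-216c, had no count in the 6 libraries. Of the islet and neuroendocrine list, 6 of 7 tested members were above 0 (median 0.11), or 4 (median 0.02) without control replicate 2, and miR-184-3p had the largest difference, 0.52 (SE 0.31). The miR-200 family, which guards the epithelial state by repressing Zeb factors, had 5 of 9 members above 0 (median 0.01), and 4 to 8 (medians from -0.04 to 0.08) under the same alternatives. miR-200a-3p and miR-200b-3p differed by -0.03 and 0.01, with 95% intervals from -0.58 to 0.52 and from -0.45 to 0.47. None of the tested members of these 3 lists was called.

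miR-3968 had the smallest p. It is a little studied miRNA whose hairpin lies on chromosome 11 (GRCm38.p6, 115447961 to 115448060, minus strand) opposite an exon of Trim80. Whether the reads of miR-3968 came from this hairpin or from another RNA of like sequence was not tested. It was at 40.7, 41.5 and 33.0 CPM in control and at 75.4, 66.5 and 92.5 CPM with caerulein. Every treated library stood above every control library. The log2 difference was 1.04 (SE 0.28, 95% interval 0.47 to 1.61), with an adjusted p = 0.343 by edgeR and 0.0495 by DESeq2. Over the alternatives the difference ran from 0.89 to 1.12 and the adjusted p of edgeR, limma-voom or DESeq2 from 0.0495 to 0.997.

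miR-6240, also little studied, lies on chromosome 5 (114851948 to 114852064, plus strand) outside annotated genes. As with miR-3968, whether its reads came from this hairpin was not tested. Its levels were 9.69, 21.7 and 10.5 CPM in control and 32.3, 33.2 and 49.0 CPM with caerulein. Again the groups did not overlap, although the raw counts were small, 20, 58 and 22 in control and 66, 19 and 260 with caerulein. The log2 difference was 1.46 (SE 0.45, adjusted p = 0.424, edgeR), and 1.20 to 1.96 with each library left out. Its seed, CAAAGCA, is that of miR-330-3p, and the summed counts of both differed by 1.26 (SE 0.39, adjusted p = 0.282, edgeR).

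Both arms of miR-126a were lower with caerulein. This miRNA is made in endothelial cells from within Egfl7 and sustains their response to vascular growth factor. The hairpin lies on chromosome 2 (26591357 to 26591429, plus strand), in an exon of Egfl7 by the GENCODE annotation. miR-126a-5p was at 660, 584 and 730 CPM in control and at 314, 280 and 456 CPM with caerulein. miR-126a-3p, the more abundant arm, was at 6060, 6492 and 7783 CPM against 3486, 3121 and 5790. For both arms each caerulein library stood below each control library, and caerulein replicate 3 came closest. The log2 differences were -0.90 (SE 0.28, adjusted p = 0.424, edgeR) and -0.71 (SE 0.28, adjusted p = 0.984), and neither passed. They ran from -1.15 to -0.78 and from -1.04 to -0.55 with each library left out.

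The 2 arms of miR-126a stood lower by like amounts. The log2 ratio of 3p to 5p was 3.36 ± 0.146 in control and 3.54 ± 0.110 with caerulein (SD, n = 3), a difference of 0.18 (SE 0.28, adjusted p = 0.954, limma). In bulk acini, fewer cells of a type and less RNA per cell cannot be told apart. The endothelial list holds only these 2 arms.

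miR-21a-3p had the largest positive difference of the 351. It is the passenger arm of miR-21, which is induced by injury and inflammation in many tissues, and its hairpin lies on chromosome 11 (86584067 to 86584158, minus strand) in an exon of Vmp1. Its counts were 3, 7 and 11 in control and 6, 7 and 136 with caerulein, or 1.45, 2.62 and 5.26 CPM against 2.94, 12.2 and 25.6. The groups overlapped, since caerulein replicate 1 lay below control replicate 3. The log2 difference of 2.18 (SE 0.71, adjusted p = 0.432, edgeR) was 1.00 without caerulein replicate 3 and 2.76 without control replicate 3. The guide arm, miR-21a-5p, was at 19141, 17905 and 23281 CPM in control and at 15556, 18854 and 25388 CPM with caerulein. Replicate 3 was the highest library of its group for both arms.

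miR-29a-5p, the scarce arm of a hairpin whose 3p arm represses collagen genes, was at 6.30, 3.74 and 4.30 CPM in control and at 7.84, 19.2 and 14.9 CPM with caerulein. The groups did not overlap, with 9 to 13 counts in the control libraries and 16, 11 and 79 with caerulein. Its log2 difference was 1.49 (SE 0.64, adjusted p = 0.984, edgeR). The abundant arm miR-29a-3p differed by 0.03, with a 95% interval from -0.41 to 0.48.

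Of the 12 miRNAs with the smallest p, 3 come from the imprinted Dlk1-Dio3 locus on chromosome 12, a large miRNA cluster that is expressed from the maternal chromosome. The locus holds 25 of the 351 miRNAs tested. An unadjusted p under 0.05 (edgeR) was thus found for 3 of 25 there and for 12 of 351 (3.42%) in all. miR-411-5p (hairpin at 109710175 to 109710256, plus strand) was at 14.1, 29.2 and 25.8 CPM in control and at 5.88, 8.75 and 15.8 CPM with caerulein. These groups overlapped, and the log2 difference of -1.09 (SE 0.49) was -1.76 without caerulein replicate 3. miR-382-3p (109733771 to 109733846, in an intron of Mirg) had 11, 5 and 18 counts against 6, 0 and 5. Its log2 difference of -1.76 (SE 0.79) ran from -2.59 to -1.19 with each library left out. miR-433-3p (109591715 to 109591838, opposite an exon of Rtl1) had 10, 8 and 6 counts against 1, 0 and 6. The log2 difference of -2.05 (SE 0.94) thus rests on few reads and was -3.05 without caerulein replicate 3. A count of 0 in caerulein replicate 2 allows up to 5.25 CPM (3 counts, counting error only). None of the 3 passed (adjusted p = 0.984 for each, edgeR).

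Over the whole locus, 25 of 108 listed miRNAs were tested, 17 of them below 0 and 8 above (median -0.14). Of all 351 miRNAs tested, 47.3% were below 0. In the locus, 14 to 18 were below 0 under other scalings and with each library left out. Its median was -0.42 without caerulein replicate 3 and -0.02 without control replicate 2. miR-127-3p, an abundant member, was at 141, 181 and 180 CPM in control and at 101, 142 and 168 CPM with caerulein (log2 difference -0.29, SE 0.33, or -0.48 without caerulein replicate 3 and -0.09 without caerulein replicate 1). At the other end, miR-370-3p differed by 1.01 (SE 0.71), or by 0.64 without caerulein replicate 1. None of the 25 was called.

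The other 3 of the 12 were scarce and stood lower with caerulein. miR-221-5p, the passenger arm of an X-linked miRNA that targets cell-cycle inhibitors, had 23, 9 and 30 counts in control and 3, 1 and 31 with caerulein. Its CPM values, 11.1, 3.37 and 14.3 against 1.47, 1.75 and 5.84, overlapped. The log2 difference of -1.36 (SE 0.61) was -2.58 without caerulein replicate 3. miR-142a-5p, from a hairpin expressed in blood cells, had 5, 13 and 16 counts against 0, 2 and 11, a log2 difference of -1.63 (SE 0.78) that was -1.02 without caerulein replicate 1 and -2.39 without replicate 3. miR-129-1-3p, known from neural and endocrine tissue, was at 9.21, 8.23 and 4.78 CPM against 1.96, 1.75 and 4.14, a log2 difference of -1.28 (SE 0.62) that was -1.94 without caerulein replicate 3. Its groups did not overlap, but caerulein replicate 2 held a single count.

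**Figure D2:**
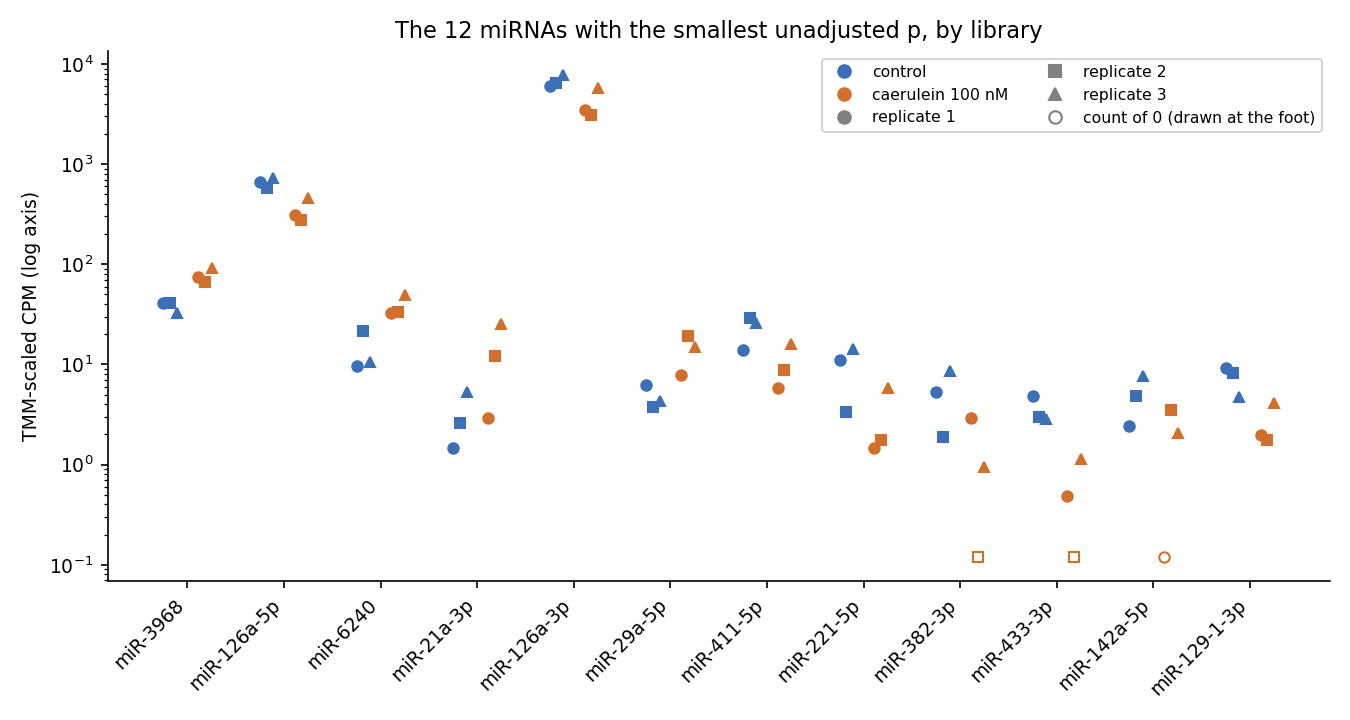
TMM-scaled CPM (log axis) of the 12 miRNAs with the smallest unadjusted p in each control (blue) and caerulein 100 nM (orange) library; symbols mark the replicate and open symbols a count of 0, drawn at the foot of the axis. Each caerulein library lies above each control library for miR-3968, miR-6240 and miR-29a-5p. Each lies below for miR-126a-5p, miR-126a-3p, miR-433-3p and miR-129-1-3p, and the groups overlap for the other 5. For miR-433-3p the count of 0 in caerulein replicate 2 allows up to 5.25 CPM. That is above its control values of 4.85, 2.99 and 2.87 CPM, so its separation is not resolved.

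The next 12 miRNAs by p held further members of known families, with differences from -1.03 to 1.40 and an adjusted p of 0.984 each (edgeR). miR-378b, whose parent family is bound up with mitochondrial metabolism, was at 110, 125 and 110 CPM in control and at 151, 175 and 184 CPM with caerulein, with no overlap. Its log2 difference was 0.56 (SE 0.29), and that of miR-378c, a near relative, 0.55 (SE 0.29), or 0.18 without caerulein replicate 3 and 0.86 without control replicate 2. The sequences of miR-378b and miR-378c differ only at their ends, so they may share reads and may not be separate observations. miR-139-3p, miR-31-3p, miR-27b-5p and miR-672-5p differed by 0.89, 1.40, 1.02 and 0.45. On the other side, miR-450a-5p, miR-195a-5p, miR-455-5p, miR-30b-3p, miR-181d-5p and miR-214-5p differed by -0.75, -0.66, -0.67, -0.75, -0.79 and -1.03. Single libraries moved several of these values. miR-139-3p was at 0.47 without caerulein replicate 1, miR-455-5p at -1.04 without caerulein replicate 3, and miR-672-5p at 0.30 without control replicate 3 and 0.68 without control replicate 2. Of these 12, the groups were apart for miR-378b and miR-139-3p (higher) and for miR-195a-5p and miR-30b-3p (lower).

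The groups were also apart, as a description only, for 12 miRNAs outside those 24. In the lower direction were miR-351-5p (-0.98), miR-28a-5p (-0.58), miR-434-3p (-0.55), miR-199a-3p (-0.41), miR-199b-3p (-0.41), miR-17-5p (-0.32), miR-361-5p (-0.22) and miR-24-3p (-0.21). Since miR-199a-3p and miR-199b-3p have the same mature sequence, they are not separate observations, although both are counted. miR-351-5p (SE 0.70) was scarce, at 6.78, 7.10 and 5.73 CPM in control and at 4.41, 1.75 and 3.01 CPM with caerulein. Its 1.75 CPM in caerulein replicate 2 was a single count. In the higher direction were miR-106b-5p (0.50), miR-151-5p (0.48), miR-574-5p (0.37) and miR-582-3p (0.37). miR-24-3p, an abundant miRNA, was at 2500, 2408 and 2273 CPM against 1982, 2101 and 2105. Its 95% interval, from a spread estimated over all 15 libraries, nevertheless ran from -0.72 to 0.29.

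Summing counts over miRNAs that share a seed gave 285 families, 40 of them with at least 2 tested members. With edgeR 0 of 285 families (0%) passed and 15 (5.26%) had an unadjusted p under 0.05, while DESeq2 called 1, which holds miR-3968 alone, and limma-voom called 0. The let-7 family, a guardian of differentiation and the largest family with 9 members, was at 115329 ± 19590 CPM in control and 121633 ± 20838 CPM with caerulein (SD, n = 3), a log2 difference of 0.08 (SE 0.21).

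After the pair of miR-6240 and miR-330-3p, the smallest p among shared seeds belonged to miR-199a-3p and miR-199b-3p, which have one and the same mature sequence and so amount to a single measurement. miR-199a-3p is expressed in mesenchymal cells, among them pancreatic stellate cells. It was at 735, 812 and 795 CPM in control and at 487, 576 and 696 CPM with caerulein, so that the groups were apart. The log2 difference of the summed family was -0.47 (SE 0.24, adjusted p = 0.970, edgeR).

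The next families by p were miR-148a, miR-148b and miR-152 at -0.73 (SE 0.39), miR-10a and miR-10b at -0.36 (SE 0.23), miR-26a and miR-26b at -0.48 (SE 0.32) and miR-500 and miR-501 (3p arms) at 0.45 (SE 0.31). The sums of the miR-148 and miR-26 families were highest in control replicate 3. Of single members of these 2 families, miR-148b-3p was at 541, 407 and 1416 CPM in control against 666, 460 and 497, and miR-26a-5p at 16434, 7921 and 27949 against 12920, 14198 and 11822. Without control replicate 3 their differences were 0.21 and 0.10, so the sign turned for both, as it did for miR-148a-3p.

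The seed AGCAGCA joins 2 of the miRNAs shown above, miR-195a-5p and miR-322-5p, with miR-15a, miR-15b, miR-16 and miR-497a, a family that restrains the cell cycle. miR-195a-5p was at 71.7, 85.2 and 63.1 CPM in control and at 51.9, 36.7 and 48.0 CPM with caerulein, a log2 difference of -0.66 (SE 0.32) with no overlap. miR-322-5p was at 16.0, 25.4 and 18.2 CPM against 4.41, 1.75 and 20.0. Its log2 difference of -0.91 (SE 0.55) was -2.46 without caerulein replicate 3 and -0.52 without replicate 1. The family sum, which the more abundant members dominate, was 613 ± 59.9 CPM in control and 539 ± 180 with caerulein, a log2 difference of -0.18 (SE 0.26).

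Families and clusters taken as lists gave the same picture of small shifts. Beside a median of 0.03 for all miRNAs tested, list medians ran from -0.81 for the endothelial list to 0.37 for the muscle and liver list, and 0 members of any list were called by edgeR. All 6 tested members of the miR-29 family were above 0 (median 0.34), among them miR-29c-3p at 0.40 (SE 0.27, or 0.20 without caerulein replicate 1), but 4 of 6 without caerulein replicate 1. The median was 0.14 without control replicate 3. Of the miR-10, miR-99, miR-100 and miR-125 families, which share ancestry and of which miR-10 lies among the Hox genes, 11 of 12 were below 0 (median -0.20), but 6 (median -0.04) without control replicate 3 and 8 with upper quartile scaling. All 4 of the miR-26 family were below 0 (median -0.19), but 2 with scaling by library totals and 1 (median 0.06) without control replicate 3. The 3 members of the family of miR-148 and miR-152 were below 0 (median -0.54), and 1 (median 0.21) without that library. Of the let-7 guides, 7 of 9 were above 0 (median 0.04), but 2 (median -0.08) without control replicate 2.

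The X-linked cluster of miR-322, miR-503, miR-542 and miR-450 had 6 of 7 members below 0 (median -0.14), with 4 below 0 under upper quartile scaling. Its median was -0.81 without caerulein replicate 3 and -0.04 without caerulein replicate 2. The miR-17-92 cluster, a driver of proliferation, had 5 of 7 below 0 (median -0.20, or -0.08 without control replicate 2). The paralogous miR-106b-25 cluster, which lies within Mcm7, had 4 of 5 above 0 (median 0.08, or 0.17 without control replicate 2), and 3 with RLE scaling. The miR-15, miR-16 and miR-195 family had 5 of 8 below 0 (median -0.22, or -0.06 without control replicate 2). The miR-23, miR-27 and miR-24 clusters had 6 of 9 below 0 (median -0.10, with -0.17 to -0.03 over the alternatives) and the miR-221 and miR-222 cluster 2 of 3 (median -0.19, with -0.37 to -0.0025). The miR-30 family had 7 of 11 above 0 (median 0.08), with 5 to 9 above 0 and a median from -0.02 (without caerulein replicate 2) to 0.21 (library totals). The miR-183, miR-96 and miR-182 cluster had 2 of 3 above 0 (median 0.09), but 1 of 3 without control replicate 2 or caerulein replicate 2, where the median was -0.04 in the latter case. miRNAs numbered 1000 or above, which are the later and often scarcer entries of the registry, had 28 of 39 above 0 (median 0.24), and 26 to 31 under the alternatives, with medians from 0.15 without caerulein replicate 3 to 0.44 without control replicate 2. That group holds both miR-3968 and miR-6240.

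**Figure D3:**
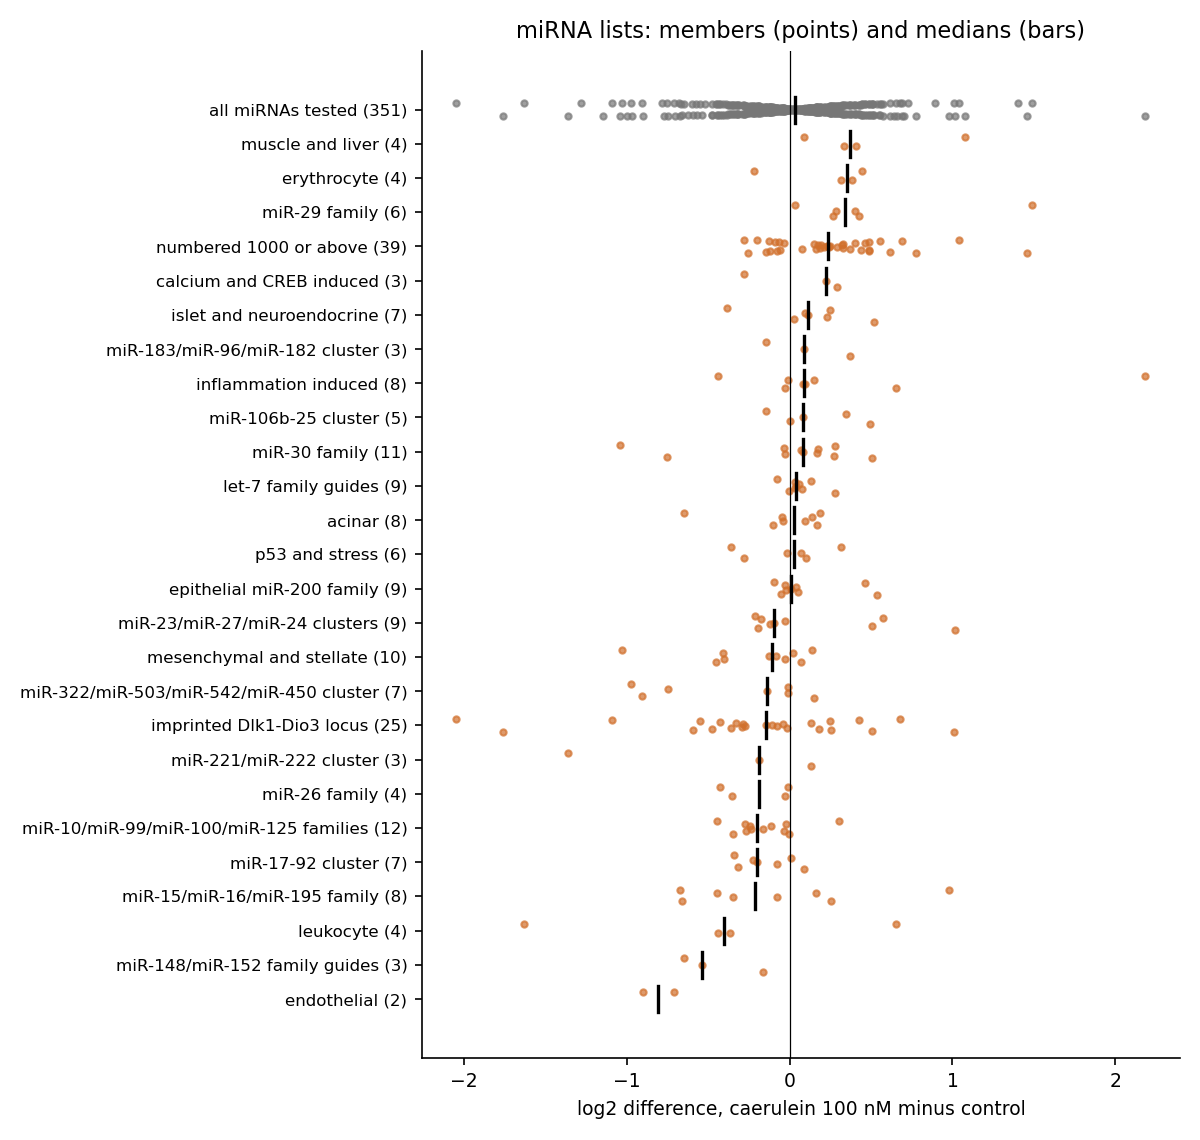
Log2 differences (caerulein 100 nM minus control) of the members of each list (points) with their median (bar); the number tested stands beside each name, and all 351 miRNAs tested are at the top. List medians run from -0.81 (endothelial, 2 members) to 0.37 (muscle and liver, 4 members).

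Lists that bear on the response of acinar cells to injury showed no common direction. Of the inflammation list, which holds miR-21a-3p, 5 of 8 members were above 0 (median 0.09), with 4 (median 0.01) without caerulein replicate 3 and a median of 0.18 without caerulein replicate 1. miR-155-5p, which is induced by NF-kB, was at 0.485, 4.11 and 5.26 CPM in control and at 2.45, 8.75 and 6.03 CPM with caerulein, a log2 difference of 0.65 (SE 0.76) that was 0.19 without control replicate 1 and 1.13 without control replicate 3. miR-146a-5p, a feedback inhibitor of the same pathway, differed by 0.15 (SE 0.32), and by -0.01 without control replicate 3 and 0.39 without control replicate 2. miRNAs induced by calcium and CREB, chosen because caerulein raises cytosolic calcium, had 2 of 3 above 0 (median 0.22), but 1 of 3 without control replicate 2, caerulein replicate 2 or caerulein replicate 3. Their median turned to -0.46 without caerulein replicate 3 and was 0.51 without caerulein replicate 1. miR-132-3p, the most abundant of them, differed by -0.28 (SE 0.32), or by -0.46 and -0.13 without these same libraries. The p53 and stress list had 3 of 6 above 0 (median 0.03, or -0.15 without caerulein replicate 1). In it miR-34a-5p, a direct target of p53, was at 0.10 (SE 0.34), with -0.16 without caerulein replicate 1 and 0.38 without control replicate 1.

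Marker miRNAs of other cell types were present in every library. The summed endothelial list was at 6721 to 8514 CPM in control and 3401 to 6247 CPM with caerulein, with no overlap. The mesenchymal and stellate list had 7 of 10 members below 0 (median -0.11), but 5 (median -0.02) without caerulein replicate 1 and 10 without control replicate 1, and its median was -0.35 without caerulein replicate 3. It summed to 12493 to 13391 CPM in control and to 9170, 10746 and 15221 CPM with caerulein. Its largest member, miR-143-3p, was at 10606, 11114 and 11055 CPM against 7692, 9054 and 13222. Caerulein replicate 3 was thus the highest of all 6 libraries in the mesenchymal sum, and it was the highest caerulein library in the endothelial sum and in miR-21a-3p. The part of such differences in the results for miR-126a and miR-21a-3p was not tested.

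Blood-derived markers were scarce. The 4 tested leukocyte miRNAs summed to 55.9 to 73.3 CPM in control and to 39.2, 45.5 and 65.9 CPM with caerulein, with 3 of 4 below 0 (median -0.40, but -1.0 without caerulein replicate 3 and -0.16 without caerulein replicate 1). Apart from miR-142a-5p these were miR-155-5p, miR-150-5p at -0.37 (SE 0.33) and miR-223-3p at -0.44 (SE 0.68). Without caerulein replicate 3 the latter 2 were at -0.67 and -1.33, and without caerulein replicate 1 at -0.24 and -0.07. The other arm of miR-142a, miR-142a-3p, was too scarce to test and had 2, 6 and 5 counts in control and 0, 0 and 25 with caerulein. The erythrocyte list summed to 131 to 156 CPM against 124 to 170, with 3 of 4 above 0 (median 0.35, or 0.15 without control replicate 1 and 0.53 without control replicate 2), of which miR-486a-5p and miR-486b-5p held nearly equal counts and may share reads. Muscle and liver miRNAs, from tissues not sampled, summed to 23.9 to 37.4 CPM against 33.2 to 44.6, with 4 of 4 above 0, and 3 of 4 without control replicate 1.

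**Figure D4:**
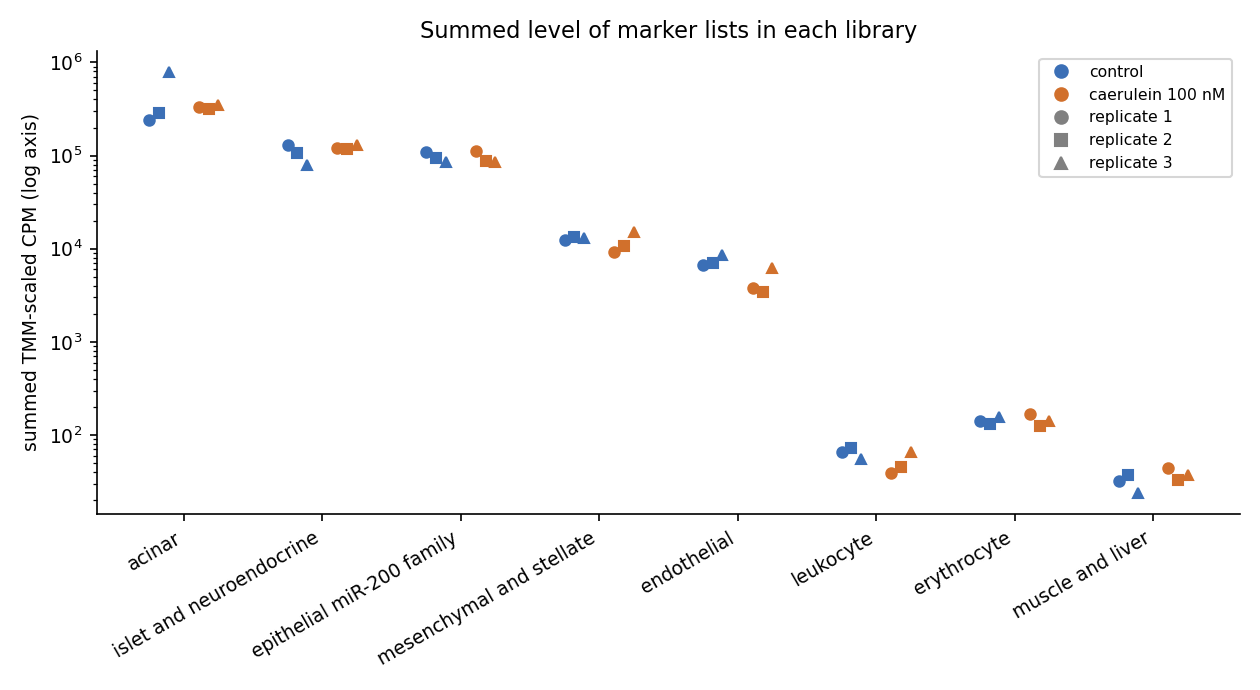
Summed TMM-scaled CPM (log axis) of the tested members of each cell type list in the control (blue) and caerulein 100 nM (orange) libraries, with symbols for the replicate. Sums of the endothelial list do not overlap between groups, caerulein replicate 3 has the highest mesenchymal and stellate sum (15221 CPM), and control replicate 3 has the highest acinar sum, 792470 CPM.

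Both arms were tested for 89 hairpins, paired by name, which allows the arms to be compared within a library, free of scaling. Some names cover several loci, such as miR-9-5p with 3. The 3p arms of miR-199a and miR-199b have one sequence, so such ratios can mix transcripts. In 50 hairpins (56.2%) both arms differed in the same direction, 29 higher and 21 lower, and across hairpins the correlation of the arms' differences was 0.18, as a description over arms that share libraries. With limma on the log2 ratio of 3p to 5p, 0 of 89 hairpins (0%) passed and 4 (4.49%) had an unadjusted p under 0.05. The median absolute difference of the ratio was 0.34 and its median SE 0.52.

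The smallest p belonged to miR-322, whose log2 ratio was -0.39, -1.27 and -0.59 in control and 0.51, 1.58 and -0.35 with caerulein. Its 3p arm was thus the scarcer in each control library and the more abundant in 2 of 3 caerulein libraries. The difference was 1.33 (SE 0.53, adjusted p = 0.837, limma), with -0.91 for the 5p arm and -0.14 for the 3p arm, and was 0.83 without caerulein replicate 2. For miR-139, a hairpin in an intron of Pde2a, the ratio was -4.55, -3.99 and -5.04 in control against -2.85, -3.14 and -3.82, with no overlap. Here the arms lay on opposite sides of 0, with -0.43 (SE 0.28) for the 5p arm and 0.89 (SE 0.45) for the 3p arm, and the ratio differed by 1.26 (SE 0.53).

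The ratio of miR-21a was -13.46, -12.64 and -12.05 in control and -12.25, -10.49 and -9.95 with caerulein, a difference of 1.82 (SE 0.83, adjusted p = 0.837, limma). The groups overlapped in 1 library, and the difference was 1.35 without caerulein replicate 3 and 2.50 without replicate 1. miR-30b differed by -1.05 (SE 0.47), with its scarce 3p arm at 36.3, 24.7 and 32.0 CPM against 22.0, 12.2 and 18.6. The 5p arms carried the differences of miR-214 (1.15, SE 0.56) and miR-221 (1.30, SE 0.66), whose 3p arms differed by 0.02 and -0.19. The ratio of miR-221 was 0.72 without caerulein replicate 1 and 2.01 without caerulein replicate 3.

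**Figure D5:**
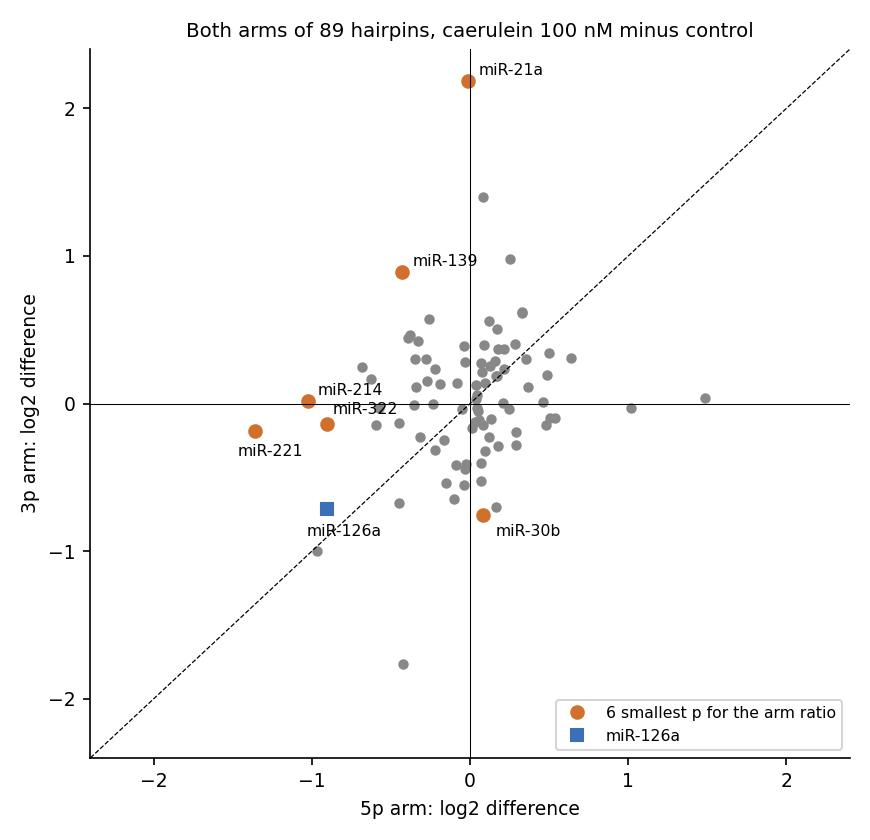
Log2 difference (caerulein 100 nM minus control) of the 3p arm against that of the 5p arm for 89 hairpins; the dashed line marks equal differences. The 6 hairpins with the smallest p for the arm ratio (orange) lie away from that line, while miR-126a (blue square) lies near it with both arms lower.

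The 100 nM dose was also compared directly with the 100 pM dose and with TLC-S at 250 uM. Against 100 pM, edgeR, DESeq2 and limma-voom each called 0 of 351 miRNAs (0%), with 6 (1.71%) at an unadjusted p under 0.05 in edgeR. Against TLC-S at 250 uM, edgeR and limma-voom called 0 (0%), with 8 (2.28%) at an unadjusted p under 0.05 in edgeR, and DESeq2 called 1 (0.285%), again miR-3968. For the comparison with 100 pM, scaling by library totals would move the median log2 difference from -0.02 to 0.27 and the share of miRNAs above 0 from 48.4% to 81.2%. These comparisons share the caerulein 100 nM libraries with the one against control, so they are not independent of it.

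miR-3968 was at 66.0, 70.8 and 55.2 CPM with caerulein at 100 pM and at 42.5, 35.6 and 31.5 CPM with TLC-S at 250 uM. With TLC-S at 62.5 uM, which was not compared directly, it was at 11.6, 11.7 and 10.3 CPM, below every control library. The 100 nM libraries overlapped those of 100 pM and lay above those of TLC-S at either dose. The direct log2 differences were 0.30 (95% interval -0.27 to 0.87) against 100 pM and 1.12 (0.54 to 1.70, adjusted p = 0.188, edgeR) against TLC-S at 250 uM.

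miR-6240 was at 32.7, 56.6 and 36.8 CPM with 100 pM and at 34.6, 24.8 and 40.9 CPM with TLC-S. The 3 treatments overlapped, and direct differences were -0.12 (95% interval -1.02 to 0.79) and 0.21 (-0.69 to 1.11). Against control, which all of these comparisons share, its log2 difference was 1.46 with 100 nM, 1.58 with 100 pM and 1.25 with TLC-S. miR-21a-3p was at 5.16, 12.3 and 10.3 CPM with 100 pM and at 4.72, 10.8 and 11.9 CPM with TLC-S, so it too overlapped in the 3 treatments. Its direct differences were 0.64 (95% interval -0.74 to 2.02) and 0.60 (-0.74 to 1.94).

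For miR-126a-5p the levels were 396, 372 and 677 CPM with 100 pM and 532, 416 and 668 CPM with TLC-S, between those of control and 100 nM on average. The direct differences of 100 nM were -0.45 (95% interval -1.02 to 0.12) and -0.62 (-1.19 to -0.04), and neither passed. Against 100 pM, miR-221-5p differed by -1.54 (95% interval -2.83 to -0.26) and miR-142a-5p by -2.0 (-3.64 to -0.37), with an adjusted p = 0.986 for both (edgeR).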

How the data were processed

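For each mature miRNA the authors deposited estimated counts (expected counts) made from small RNA reads. The builds GRCm38 and mm10 and the tools cutadapt and Bowtie are named per the submitters' processing notes. No version or counting tool was given in the sources used here. Each value was whole and within 0.5 of the summed precursor counts. Since 74.0% of the precursor values were whole within 0.001 and the others fractional, reads of near-identical miRNAs may have been shared out. Such miRNAs (let-7, miR-199, miR-378, miR-486) are uncertain to that extent. RNA had been pooled from several preparations.

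Libraries were grouped by title, 3 per group. Counts were tested with edgeR 4.0.16 (TMM, filterByExpr with a minimum count of 10, quasi-likelihood test) in 1 model of the 5 group means over 15 libraries with 10 residual degrees of freedom, and p-values were adjusted over all features by the Benjamini-Hochberg method at 0.05. The SE comes from the F statistic or, within 0.05 of a log2 difference of 0, from the Fisher information. Seed families are counts summed over miRNAs that share bases 2 to 8 in RefSeq's GRCm38.p6 entries, which were found for 312 of the 351 miRNAs tested. Arm ratios were tested with limma 3.58.1 on log2 of (3p + 0.5) over (5p + 0.5). Alternatives were other scalings and filters, DESeq2 1.42.0, limma-voom, the 2 groups alone, a replicate block, and leaving out each library. The steps were tested on simulated counts with large changes put in. That test does not show what they detect at differences as small as most of those here. The miRNAs named are the 24 with the smallest p, the most abundant in control, both arms of miR-21a, up to 4 abundant members of each list, and 6 families and 6 hairpins by p; miRNAs named only because their groups were apart, as partner arms or as the extreme of a list were chosen after their values were seen. Members and lists were chosen with earlier results of these data known. Library totals ran from 535473 to 5087728 counts, and the tested miRNAs held at least 99.968% of each.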

Additional observations from a re-analysis of the deposited data

How the results depend on the processing

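The count of edgeR calls against control, and against 100 pM and TLC-S at 250 uM, was 0 under each alternative run except DESeq2, which called 1 miRNA against control and 1 against TLC-S (miR-3968 in both) and 1 seed family, that of miR-3968. For miR-3968 the DESeq2 difference was 1.03 (adjusted p = 0.0495). Leaving out each library in turn gave 0 to 0 calls in every comparison, with families and arm ratios included. A replicate block gave 0 calls, with 18 miRNAs at an unadjusted p under 0.05 against 12 without it. For miR-3968 the adjusted p was 0.124 with the block and 0.343 without it (edgeR). Deviations of same-numbered control and caerulein 100 nM libraries correlated at 0.20, -0.04 and 0.05. Whether same-numbered libraries share a preparation or batch cannot be decided from these values. The number at an unadjusted p under 0.05 against control ran from 8 (library totals) to 29 (no low-count filter, 867 tested). Other scalings moved the median log2 difference from 0.03 to between 0.02 and 0.08, and the share above 0 to between 51.0% and 61.3%. Of the 24 leading miRNAs 0 changed sign in the alternatives run, and 14 of them were tested at a mean CPM of at least 10. These 24 were chosen by p in the same libraries, so their kept signs are not an independent check. Among 83 single miRNAs, 38 of 1377 alternatives turned the sign, in 18 miRNAs, 12 of them within 0.3 of no difference. For miR-200b-3p the value was -0.0059 with RLE scaling and with DESeq2, -0.0066 with the 3 most abundant miRNAs removed, and -0.018 at a mean CPM of at least 10. miR-21a-5p was at 0.024 with upper quartile scaling, 0.074 with library totals and 0.0080 with the 2 groups alone. miR-200a-3p was at 0.011, 0.0055 and 0.010 in these 3 settings, miR-27b-3p at 0.018 with library totals, and miR-3470b at -0.18 with limma-voom. Leaving out single libraries gave ranges of -0.22 to 0.16 for miR-21a-5p, -0.97 to 0.45 for miR-148a-3p, -0.83 to 0.21 for miR-148b-3p, -0.32 to 0.18 for miR-200a-3p, -0.063 to 0.087 for miR-200b-3p, -0.12 to 0.18 for let-7g-5p, -0.080 to 0.043 for miR-27b-3p and -0.38 to 0.047 for miR-143-3p. The ranges were -0.013 to 0.39 for miR-146a-5p, -0.043 to 0.11 for miR-29a-3p, -0.16 to 0.38 for miR-34a-5p, -0.75 to 0.10 for miR-26a-5p, -0.63 to 0.11 for miR-26b-5p, -0.16 to 0.93 for miR-122-5p, -0.30 to 0.55 for miR-29b-3p, -0.81 to 1.12 for miR-3470b, -0.37 to 0.011 for miR-221-3p and -0.81 to 0.15 for miR-322-3p. The cause was not tested. The counts of list members under other scalings and without single libraries were chosen as alternatives after seeing the data. Depth limits most the miRNAs below 10 CPM, whose intervals reach 2.64-fold at the median, and caerulein replicate 2.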

Other observations

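Of the 351 miRNAs, caerulein replicates 1 to 3 had 100, 78 and 91 above all 3 control libraries and 86, 98 and 70 below all of them. More than 1 log2 unit from the control mean were 34, 48 and 17 miRNAs. The deep replicate 3 thus held the fewest far values. Among miRNAs too scarce to test, miR-147-3p, induced in macrophages, had 0, 0 and 0 counts in control and 3, 1 and 13 with caerulein. Its 13 counts came from the deepest library. It belongs to the inflammation list, of which 5 of 8 tested members were above 0, while 3 of the 4 tested leukocyte miRNAs were below 0. miR-144-5p, an erythrocyte miRNA, had 4, 3 and 1 counts against 5, 0 and 2. Both belong to the 364 miRNAs counted but not tested, so these counts are a description only. Both arms of miR-216c and miR-375-5p had no count in the 6 libraries.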
